A study of Mus musculus with 9 samples.

Results

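Smarca4, Trim24, Trim28, Yap1, Nfya, Nr5a2, Dppa2, Dppa4 and Rif1 are 9 genes whose products are stored in the egg or made early and act when the mouse embryo first transcribes its own genome. They were taken as a named list, by a rule that uses no measured value, and all 9 have a row among the 24454 genes of the count table. The list was chosen with earlier results of these data known. RNA was sequenced from ICR mouse embryos grown in culture from the zygote to the 2-cell stage, with 3 embryos pooled in each of 9 libraries. Each of 3 groups has 3 libraries: control embryos, embryos under a high glucose load, and embryos under the same load that were also given ZGW rat serum. The labels do not say whether the control and high glucose embryos received drug-free rat serum, what glucose level was used, or from which matings the embryos came. Comparisons with the ZGW serum group therefore include any effect of serum itself, and p-values measure the spread between pooled samples, which may be technical.

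The mouse zygote begins with little transcription of its own and lives on RNA and protein from the oocyte. A minor wave of transcription in the zygote and a major wave at the 2-cell stage then switch on the embryonic genome, while oocyte RNA is cleared. Chromatin remodellers, pioneer transcription factors and corepressors inherited from the oocyte open or close the first promoters. A short-lived set of 2-cell transcripts, such as the Zscan4 and Usp17l families, follows.

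The smallest library held 11934924 counts and the largest 16916343, and 16964 genes passed the filter on low counts. Control replicate 1 and ZGW serum replicate 3 stood furthest apart on the leading principal component (17.8% of variance). Levels are given as CPM, counts divided by the library total and scaled with TMM factors, and differences as log2 fold changes from edgeR with their standard errors. All 12 oocyte and early embryo markers were present in every library, with summed levels of 19421 to 27502 CPM in the control libraries, 13409 to 18304 CPM under high glucose and 16966 to 42544 CPM with ZGW serum, highest in ZGW serum replicate 3. All high glucose sums lay below all control sums. The sums were led by Dppa3, at 7705 to 32807 CPM over the libraries, and then Oosp1, at 2301 to 5523 CPM. Between high glucose and control 7 of the 12 markers had log2 fold changes above 0 and 5 below, with a median of 0.18. Markers of cumulus and granulosa cells summed to 11.7 to 24.9 CPM in the control libraries, 3.47 to 13.5 CPM under high glucose and 4.25 to 7.54 CPM with ZGW serum, and Fshr was at 0 in 7 libraries. The 11 markers of stroma and epithelium, led by Epcam, Krt18 and Pecam1, summed to 107.4 to 224.6 CPM in the control libraries, 67.6 to 110.5 CPM under high glucose and 26.3 to 70.3 CPM with ZGW serum, with Dcn at 0 in 8 libraries. The 8 blood markers, almost all from Hba-a1 and Hba-a2, which share their counts, summed to 249.6 to 368.4 CPM in the control libraries, 86.6 to 308.2 CPM under high glucose and 318.7 to 528.1 CPM with ZGW serum, and Ptprc was at 0 in 8 libraries. These sums hold the shared counts of Hba-a1 and Hba-a2 under both names, so they overstate the blood RNA counted. The 6 sperm markers summed to 8.46 to 12.8 CPM in the control libraries, 3.66 to 9.59 CPM under high glucose and 13.6 to 25.6 CPM with ZGW serum. The part of these RNAs in the results was not tested.

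None of the 9 regulators passed an adjusted p of 0.05 in any of the 3 comparisons by edgeR's quasi-likelihood test, nor did any of the 16964 genes tested (0% called in each comparison). At an unadjusted p under 0.05, edgeR's test marked 0 of 9 regulators between high glucose and control, where 7.39% of all genes were marked. It marked 1 of 9 between ZGW serum and high glucose (8.68% of all genes), which was Rif1. It marked 2 of 9 between ZGW serum and control (9.86% of all genes), which were Yap1 and Dppa4. DESeq2, run as an alternative, called 0 of 9 between high glucose and control (0.818% of genes), 0 of 9 between ZGW serum and high glucose (1.5%) and 1 of 9, Dppa4, between ZGW serum and control (2.4%). A missed threshold does not show that levels were equal, and the intervals given for each gene show what size of difference these libraries allow. In bulk libraries, fewer cells of a type and less RNA per cell cannot be told apart.

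The 3 libraries of one group lay entirely above or below the 3 of another for 2 of 9 regulators between high glucose and control, Yap1 and Rif1, both higher (13.7% of all genes did not overlap, 6.84% higher and 6.91% lower). For 6 of 9 regulators the ZGW serum and high glucose libraries did not overlap, against 17.3% of all genes. Smarca4 was the higher one (9.08% of all genes were higher), and Nfya, Nr5a2, Dppa2, Dppa4 and Rif1 were lower (8.26% of all genes were lower). The ZGW serum and control libraries did not overlap for Yap1, which was higher, and Dppa4, which was lower, against 16.3% of all genes (9.02% higher and 7.3% lower). Leaving out a library cannot make separate groups overlap, so such counts can only stay or grow and say nothing about stability. Without control replicate 1 the count between high glucose and control was 4 (Trim28, Yap1, Dppa4 and Rif1), against 23.5% of all genes. Without ZGW serum replicate 3 the count between ZGW serum and high glucose stayed at 6, while the share of all genes grew to 28.6%. For ZGW serum and control the count stayed at 2, while the share of all genes grew to 25.9% without control replicate 1, 24.9% without ZGW serum replicate 3 and 37.9% without both.

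**Figure D1:**
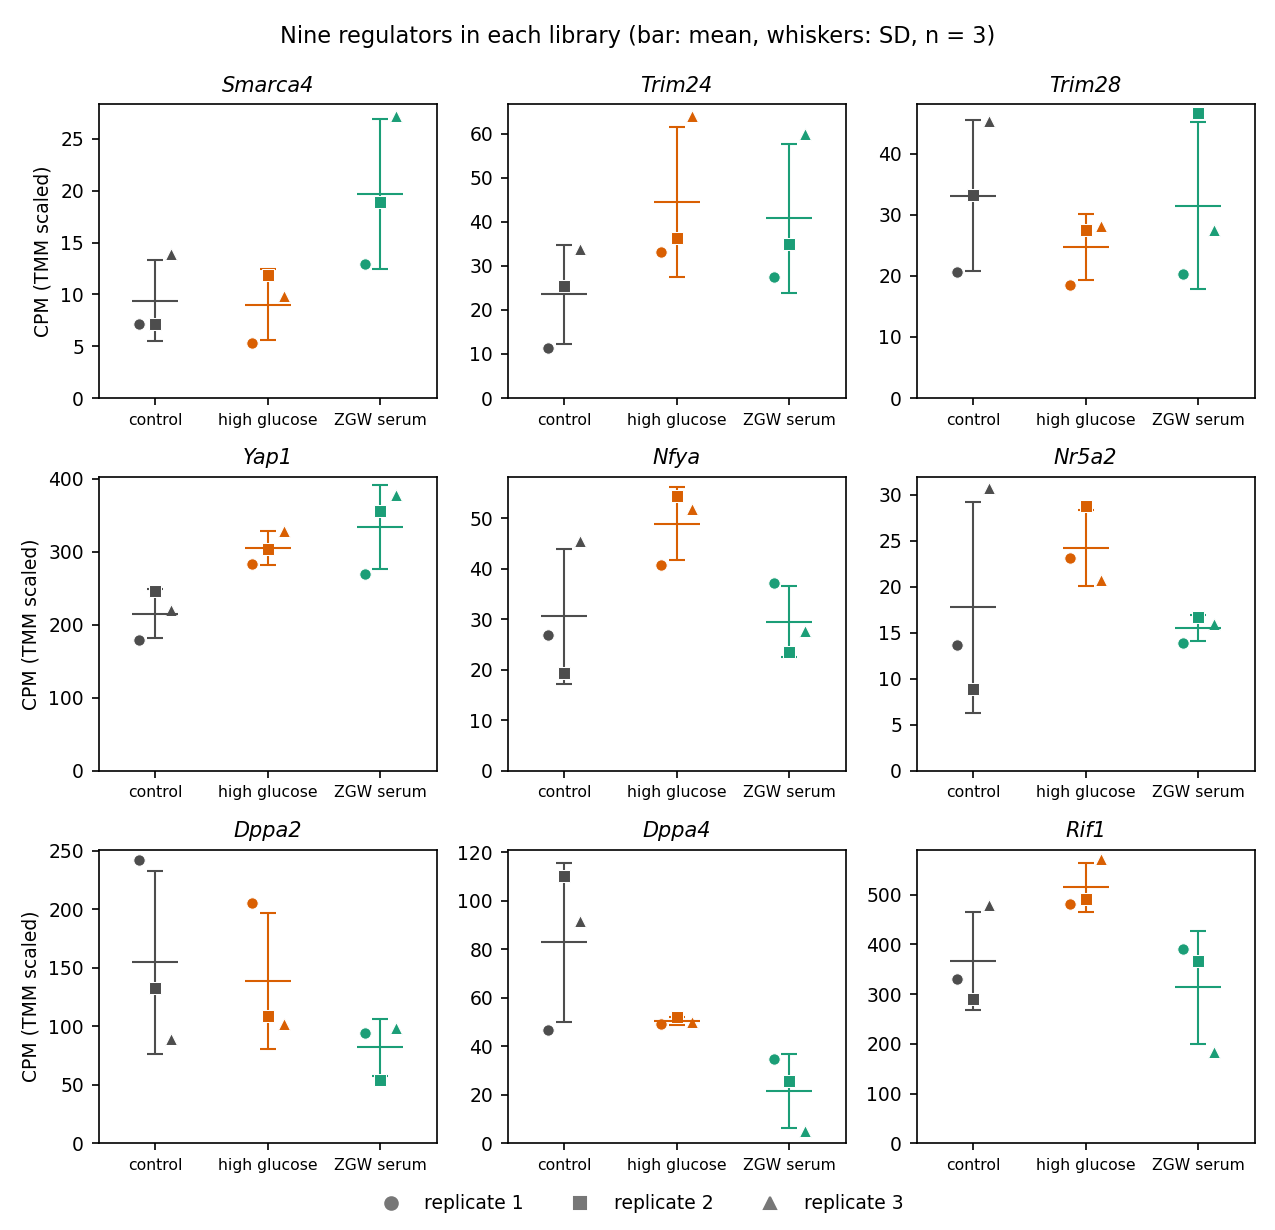
Level of each regulator in CPM (vertical axes, scaled with TMM factors, each starting at 0) in the 3 libraries of control, high glucose and ZGW serum; symbols mark replicates, long bars are means and whiskers are SD (n = 3). The ZGW serum libraries of Dppa4 all lie below 35 CPM and those of control all lie above 46 CPM, while the groups of Trim24 and Trim28 overlap throughout.

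The median log2 fold change over the 9 regulators was 0.45 between high glucose and control, with 5 above 0 and 4 below, beside a median of -0.02 over all genes tested. For ZGW serum against high glucose the median was -0.64, with 3 above and 6 below, beside 0.00 over all genes. For ZGW serum against control it was -0.07, again with 3 above and 6 below, beside 0.00 over all genes. Each group enters 2 of the 3 comparisons, so these values are not independent of each other.

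**Figure D2:**
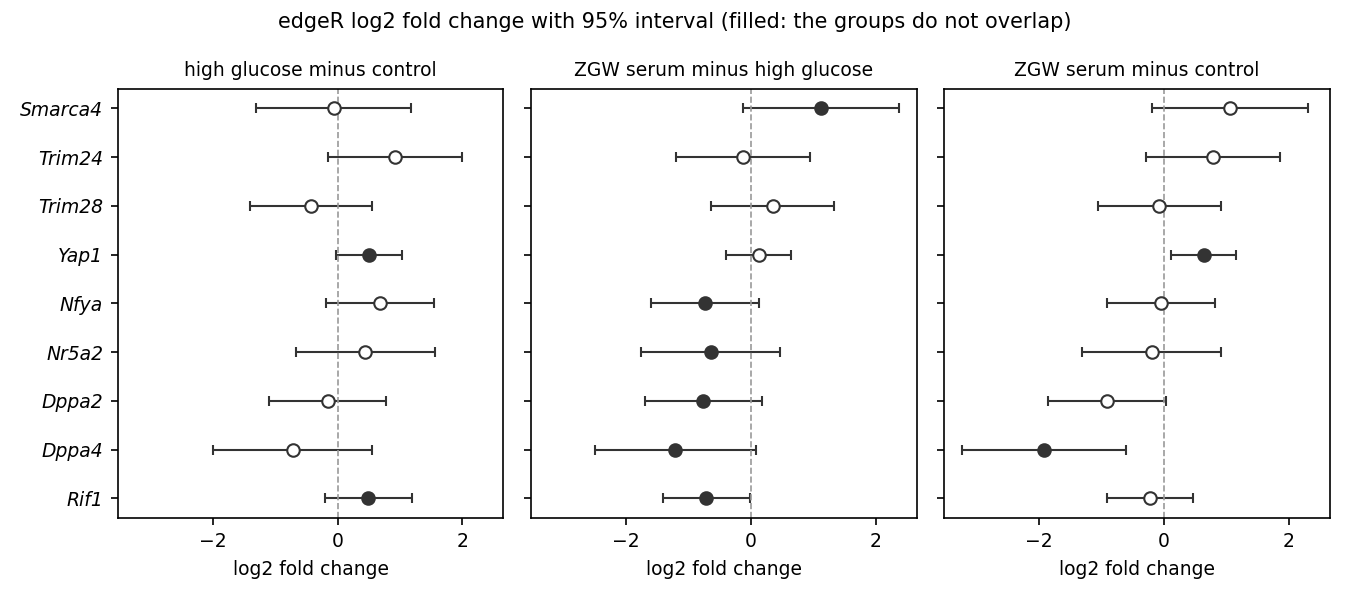
edgeR log2 fold change of each regulator (horizontal axes) with its 95% interval, in 3 panels for the 3 comparisons; filled points mark genes whose libraries do not overlap between the groups compared. The interval lies wholly on one side of 0 for Rif1 between ZGW serum and high glucose and for Yap1 and Dppa4 between ZGW serum and control.

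Smarca4 encodes BRG1, the ATPase that drives the BAF (SWI/SNF) chromatin remodelling complex and a maternal factor needed at genome activation. The gene lies on chromosome 9, positions 21616169 to 21704230 on the plus strand of GRCm38, and holds the small RNA gene Gm27373 on the same strand. Its levels were 7.14, 7.14 and 13.9 CPM in control replicates 1, 2 and 3. They were 5.29, 11.9 and 9.85 CPM under high glucose and 12.9, 18.9 and 27.2 CPM with ZGW serum. The ZGW serum libraries were the 3 highest apart from control replicate 3, which lay above ZGW serum replicate 1. Smarca4 had a log2 fold change between ZGW serum and high glucose of 1.13 ± 0.57 (SE; 95% interval -0.12 to 2.38; edgeR adjusted p = 0.612), and 0.85 without ZGW serum replicate 3. Against control it was 1.06 ± 0.57 with ZGW serum (interval -0.18 to 2.31; edgeR adjusted p = 0.565; 0.62 with ZGW serum replicate 3 and control replicate 1 left out), and -0.06 ± 0.56 under high glucose (interval -1.30 to 1.18).

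The rest of the BAF complex was followed through 25 listed genes, of which 21 were tested and 0 passed the threshold in any comparison. The median log2 fold change of these 21 was 0.24 between high glucose and control, -0.16 between ZGW serum and high glucose and 0.30 between ZGW serum and control. Brd9, a subunit of the non-canonical complex, had the lowest p of the list in both comparisons with control. Its levels were 0.146, 1.19 and 1.605 CPM in the control libraries, 5.21, 6.92 and 10.1 CPM under high glucose and 4.02, 5.47 and 9.58 CPM with ZGW serum. The log2 fold change against control was 2.91 ± 0.92 under high glucose (edgeR adjusted p = 0.627) and 2.68 ± 0.91 with ZGW serum (edgeR adjusted p = 0.415). The control levels of Brd9, down to 0.146 CPM, lie near the floor, so the size of both folds is uncertain. Actl6a, the actin-like BAF53A subunit, had the lowest p between ZGW serum and high glucose, at -0.66 ± 0.34 (edgeR adjusted p = 0.614).

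Trim24 encodes TIF1-alpha, a bromodomain chromatin reader that enters the nucleus of the zygote at the start of transcription. It lies on chromosome 6, positions 37870811 to 37966296 on the plus strand. The control levels were 11.4, 25.5 and 33.7 CPM. Under high glucose they were 33.2, 36.3 and 64.0 CPM, and with ZGW serum 27.5, 35.0 and 59.8 CPM. Control replicate 1 was the lowest library and high glucose replicate 3 the highest, and the 3 groups overlapped. Trim24 had a log2 fold change of 0.92 ± 0.49 between high glucose and control (interval -0.16 to 2.00; edgeR adjusted p = 0.723) and 0.59 without control replicate 1. It was 0.53 without high glucose replicate 3. Its log2 fold change in ZGW serum against high glucose was -0.13 ± 0.48, and the sign changed when high glucose replicate 3 or ZGW serum replicate 1 was left out. Against control, ZGW serum gave 0.79 ± 0.49 (interval -0.28 to 1.87; edgeR adjusted p = 0.622). That value was 0.43 without ZGW serum replicate 3 and 0.10 without that library and control replicate 1.

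Trim28 encodes KAP1, the corepressor that KRAB zinc finger proteins bring to retrotransposons and imprinted regions. It lies on chromosome 7, positions 12999114 to 13031035 on the plus strand, and overlaps Zbtb45 on the opposite strand. The source of the counts does not give the strand setting, so reads of these overlapping genes may not be separated. Its levels were 20.7, 33.2 and 45.4 CPM in the control libraries, 18.4, 27.5 and 28.2 CPM under high glucose and 20.2, 46.6 and 27.5 CPM with ZGW serum. The lowest library of each group was replicate 1, and all groups overlapped. Trim28 had a log2 fold change of -0.42 ± 0.44 between high glucose and control (interval -1.40 to 0.56), 0.35 ± 0.44 between ZGW serum and high glucose and -0.07 ± 0.44 between ZGW serum and control.

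Of 16 listed partners of TRIM28, which form or read heterochromatin, 15 were tested and 0 passed the threshold. Between high glucose and control 8 of the 15 had values above 0 and 7 below, with a median of 0.005. Between ZGW serum and control 5 were above 0 and 10 below, with a median of -0.46. In ZGW serum against high glucose 2 of the 15 had values above 0 and 13 below, with a median of -0.34. Cbx3, which encodes the heterochromatin protein HP1-gamma, had the lowest p there. Its levels were 287.3, 300.4 and 219.0 CPM in the control libraries, 315.4, 205.4 and 175.1 CPM under high glucose and 132.1, 70.3 and 66.8 CPM with ZGW serum. All 3 ZGW serum libraries lay below every other library, at -1.37 ± 0.34 against high glucose (edgeR adjusted p = 0.370) and -1.58 ± 0.34 against control (edgeR adjusted p = 0.338). Setdb1, the histone H3 lysine methyltransferase that works with TRIM28, had the lowest p between high glucose and control, at 0.75 ± 0.34 (edgeR adjusted p = 0.676).

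The ratio of Trim24 to Trim28 was examined after their values were seen. Trim24 stood below Trim28 in all 3 control libraries, at log2 ratios of CPM of -0.86, -0.38 and -0.43. It stood above Trim28 in all 3 high glucose libraries, at 0.85, 0.40 and 1.18. The ZGW serum libraries gave 0.44, -0.41 and 1.12. The control and high glucose ratios did not overlap, while each gene on its own overlapped between these groups. How many pairs of genes separate these groups by their ratio was not counted. The separation of this chosen ratio is therefore no evidence of a difference, and it was not tested.

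Yap1 encodes the transcriptional coactivator that the Hippo kinases keep out of the nucleus and that works with TEAD factors. Its maternal product is needed for normal genome activation in the mouse. The gene lies on chromosome 9, positions 7931999 to 8004596 on the minus strand, and overlaps the non-coding Gm20416 on the other strand. Its levels were 179.3, 245.9 and 220.7 CPM in the control libraries, 283.2, 304.3 and 329.2 CPM under high glucose and 269.3, 356.0 and 378.4 CPM with ZGW serum. Every library of the 2 glucose-loaded groups lay above every control library. The log2 fold change against control was 0.50 ± 0.24 under high glucose (interval -0.02 to 1.03; edgeR adjusted p = 0.688) and 0.64 ± 0.24 with ZGW serum (interval 0.11 to 1.16; edgeR adjusted p = 0.448). As linear folds these were 1.42 (interval 0.988 to 2.04) and 1.55 (interval 1.08 to 2.23). ZGW serum differed from high glucose by a log2 fold change of 0.13 ± 0.24 (interval -0.39 to 0.65). Yap1 was the steadiest of the 9 regulators, with a within-group SD of 0.21 in log2 CPM, beside a median of 0.56 over the 7530 genes with at least 10 CPM. Its mean of 285.1 CPM is far above that limit, and its spread was not compared with genes of like level.

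The Hippo pathway list held 17 genes, all tested, and 0 passed the threshold. Wwtr1, which encodes TAZ, the paralogue of YAP1, had the lowest p between high glucose and control. Its levels were 40.6, 16.5 and 17.4 CPM in the control libraries, 4.08, 6.69 and 5.05 CPM under high glucose and 9.45, 15.8 and 10.1 CPM with ZGW serum. High glucose held its 3 lowest libraries and control its 3 highest, at -2.23 ± 0.56 (edgeR adjusted p = 0.627). Mob1b, a cofactor of the LATS kinases, stood at -0.87 ± 0.34 between ZGW serum and high glucose (edgeR adjusted p = 0.533). Nf2, the upstream activator Merlin, stood at 1.48 ± 0.61 between ZGW serum and control (edgeR adjusted p = 0.474).

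Of 7 listed YAP1 targets 5 were tested and 0 passed the threshold. Rpl13, a ribosomal protein gene described as a target of YAP1 in the mouse embryo, had levels of 221.6, 283.5 and 162.6 CPM in the control libraries, 62.0, 84.4 and 52.6 CPM under high glucose and 50.9, 47.9 and 54.2 CPM with ZGW serum. Its control libraries all lay above every other library. Rpl13 has near-identical processed copies, so its count is uncertain. Rpl13 had a log2 fold change of -1.75 ± 0.30 between high glucose and control (edgeR adjusted p = 0.579) and -2.13 ± 0.30 between ZGW serum and control (edgeR adjusted p = 0.186). Rpl13 had the lowest p of all 16964 genes between high glucose and control. Cyr61, a matricellular target, had the lowest p between ZGW serum and high glucose but was at or below 3.72 CPM in every library and at 0 in 4, and gives no fold here.

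Nfya encodes the subunit of the trimeric factor NF-Y that reads the CCAAT box, and NF-Y helps to open promoters in the 2-cell embryo. The promoter of Trim24, with 2 CCAAT boxes, and promoter stretches of 3 2-cell transcripts show the motif. They come from RefSeq (GRCm38.p6), are read 5′ to 3′ on the strand of the gene and end at the base before the annotated start. Capitals mark CCAAT or its reverse complement ATTGG. The stretches are chr6:37870561-37870810 (plus) for Trim24, chr7:11005625-11005744 (plus) for Zscan4c, chr7:104856896-104857015 (plus) for Usp17la and chr17:34959239-34959358 (minus) for Hspa1b.
Trim24: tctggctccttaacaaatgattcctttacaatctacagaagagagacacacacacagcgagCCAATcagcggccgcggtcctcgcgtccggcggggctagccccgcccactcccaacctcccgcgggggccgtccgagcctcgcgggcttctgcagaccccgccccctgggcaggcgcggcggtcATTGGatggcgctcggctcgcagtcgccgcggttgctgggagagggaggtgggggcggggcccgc
Zscan4c: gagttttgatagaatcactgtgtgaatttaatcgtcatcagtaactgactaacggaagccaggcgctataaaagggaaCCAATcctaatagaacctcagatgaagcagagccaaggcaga
Usp17la: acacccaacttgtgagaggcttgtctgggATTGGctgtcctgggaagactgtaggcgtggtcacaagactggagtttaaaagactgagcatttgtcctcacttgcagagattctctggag
Hspa1b: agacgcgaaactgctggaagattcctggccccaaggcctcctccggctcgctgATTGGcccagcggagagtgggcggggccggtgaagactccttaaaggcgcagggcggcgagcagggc

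RefSeq gave promoters for 6 of the 9 regulators, and CCAAT in either orientation lay within 250 bases upstream of a start for 3 of them (Trim24, Nr5a2 and Nfya, for the last 2 at an alternative start). Over all genes the share was 37.5%, or 10133 of 27025. Of the 14 listed 2-cell genes with a promoter, 12 held the motif, but copies within a family share their sequence. By promoters rather than genes, 3 of 10 promoters of the regulators and 13 of 15 promoters of 2-cell genes held it, beside 33.8% of all promoters. The shares of the regulators rest on 6 genes and 10 promoters. They lay above the share of all genes but below that of all promoters, so no enrichment is read from them. The TEAD motif GGAATG, searched on both strands, was found for 2 of the 6 regulators, Yap1 and Nr5a2, for 0 of the 14 2-cell genes and for 14.4% of all genes. The NR5A2 motif AAGGTCA, on both strands, was found for 0 of the 6 regulators, 4 of the 14 2-cell genes and 4.70% of all genes. These matches describe the letters in these windows.

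Nfya lies on chromosome 17, positions 48386885 to 48409906 on the minus strand. Its levels were 26.9, 19.3 and 45.4 CPM in the control libraries, 40.6, 54.3 and 51.8 CPM under high glucose and 37.2, 23.5 and 27.7 CPM with ZGW serum. The high glucose libraries all lay above the ZGW serum libraries, and control overlapped both. The log2 fold change between ZGW serum and high glucose was -0.73 ± 0.39 (interval -1.60 to 0.14; edgeR adjusted p = 0.640). It was 0.68 ± 0.39 between high glucose and control (interval -0.19 to 1.55; edgeR adjusted p = 0.752) and -0.05 ± 0.39 between ZGW serum and control. The other subunits, Nfyb and Nfyc, were both tested and 0 passed: their groups overlapped in all 3 comparisons. Nfyb had the lower p of the pair between high glucose and control, at 0.25 ± 0.42. Nfyc had it in the other 2 comparisons, at -0.47 ± 0.44 between ZGW serum and high glucose and -0.32 ± 0.44 between ZGW serum and control.

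Nr5a2 encodes an orphan nuclear receptor that acts as a pioneer factor in the 2-cell embryo. It lies on chromosome 1, positions 136842571 to 136960448 on the minus strand. Its levels were 13.7, 8.85 and 30.7 CPM in the control libraries, 23.1, 28.7 and 20.7 CPM under high glucose and 13.9, 16.7 and 15.97 CPM with ZGW serum. Control held both its lowest and its highest library, and all ZGW serum libraries lay below all high glucose libraries. Nr5a2 had a log2 fold change of -0.64 ± 0.51 between ZGW serum and high glucose (interval -1.76 to 0.47; edgeR adjusted p = 0.769), 0.45 ± 0.50 between high glucose and control, and -0.20 ± 0.50 between ZGW serum and control. Both comparisons with control moved with single control libraries. High glucose against control was 0.13 without control replicate 2 and 1.07 without control replicate 3, and ZGW serum against control was -0.52 and 0.42. Of 11 listed partners 10 were tested and 0 passed. Tfap2c, the AP-2 gamma factor, had levels of 29.9, 10.05 and 10.4 CPM in the control libraries, 3.17, 3.53 and 3.26 CPM under high glucose and 9.85, 9.08 and 6.21 CPM with ZGW serum. The 3 groups of Tfap2c did not overlap, with a log2 fold change of -2.34 ± 0.64 between high glucose and control (edgeR adjusted p = 0.627) and 1.33 ± 0.62 between ZGW serum and high glucose (edgeR adjusted p = 0.583). Tfap2c was named for the lowest p of its list in these comparisons, so the separation is no further evidence. Klf5, a Krüppel-like factor, had the lowest p between ZGW serum and control, at -1.31 ± 0.80 (edgeR adjusted p = 0.617).

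**Figure D3:**
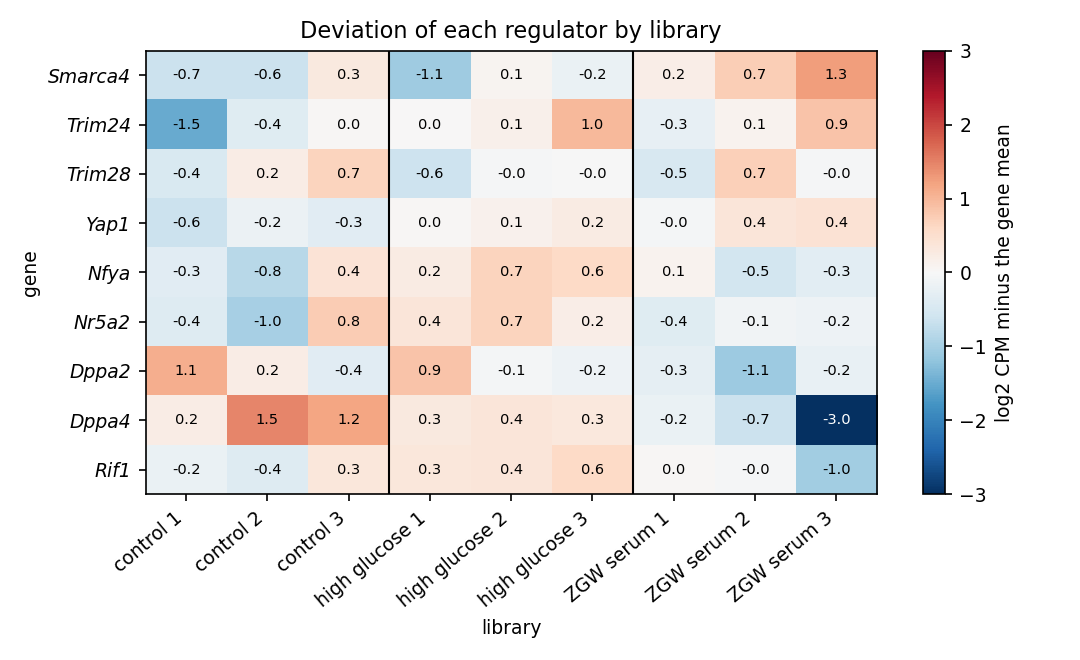
Log2 CPM of each regulator (rows) in each library (columns) minus its mean over the 9 libraries, with the value printed in each cell and red above and blue below the mean. Dppa4 in ZGW serum replicate 3 is the deepest blue cell, at -3.0, and Yap1 has the palest row.

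Dppa2 and Dppa4 encode SAP-domain proteins that bind each other and DNA and that are known to switch on Dux and 2-cell transcripts in mouse embryonic stem cells. They are neighbours on the plus strand of chromosome 16, Dppa4 at 48283733 to 48294237 and Dppa2 at 48303908 to 48319723, with 9670 bases and 0 genes between them. Processed pseudogenes hold 29.1% of the 50-base stretches of Dppa2 transcripts and 31.3% of those of Dppa4. The deposited counts hold no row under the names of these pseudogenes. How reads that match several places were counted is not given in the sources used here. The values of both genes are therefore uncertain.

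Dppa4 ranged most widely of the 9 regulators, over 22.2-fold from its lowest to its highest library. Its raw counts were 640, 1484 and 1256 in the control libraries, 651, 678 and 613 in the high glucose libraries and 441, 481 and 56 in the ZGW serum libraries. As levels these were 46.6, 110.4 and 91.6 CPM, then 49.2, 52.1 and 49.9 CPM, then 34.7, 25.5 and 4.97 CPM. All ZGW serum libraries lay below all libraries of the other groups, and ZGW serum replicate 3 lay far below its own group. The high glucose libraries lay within 3 CPM of each other and inside the span of control. The log2 fold change between ZGW serum and control was -1.93 ± 0.59 (interval -3.24 to -0.61; edgeR unadjusted p = 0.00810, adjusted p = 0.403), a level 3.81-fold lower (interval 1.53 to 9.46). It was -1.44 without ZGW serum replicate 3 (adjusted p = 0.664), -1.72 without that library and control replicate 1 (adjusted p = 0.726), and -1.97 by DESeq2, which called it (adjusted p = 0.0380; DESeq2 called 2.4% of genes in that comparison). Over the 17 alternatives for this comparison the log2 fold change ran from -2.44 to -1.44 and the adjusted p from 0.0380 to 0.726.

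Against high glucose the log2 fold change of Dppa4 with ZGW serum was -1.21 ± 0.58 (interval -2.50 to 0.08; edgeR adjusted p = 0.592), and -0.72 without ZGW serum replicate 3. Between high glucose and control it was -0.72 ± 0.58 (interval -1.99 to 0.56; edgeR adjusted p = 0.831). That standard error draws on a spread shared with the ZGW serum libraries. Without ZGW serum replicate 3 the value was -0.72 ± 0.36 (edgeR adjusted p = 0.634). Without that library and control replicate 1 it was -1.01 ± 0.31 (edgeR adjusted p = 0.691). In the edgeR test for any difference among the 3 groups Dppa4 had the lowest p of the 9 regulators (unadjusted p = 0.0256, adjusted p = 0.513), where 9.24% of all genes were under an unadjusted 0.05. ZGW serum replicate 3, the library with the lowest Dppa4, also had the highest summed oocyte markers, a sum led by Dppa3. Between ZGW serum and high glucose 6 of the 12 oocyte markers had log2 fold changes above 0 and 6 below. The part of this sum in the level of Dppa4 was not tested.

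Dppa2 had levels of 241.5, 132.8 and 89.3 CPM in the control libraries, 205.4, 108.7 and 101.7 CPM under high glucose and 94.1, 53.7 and 98.1 CPM with ZGW serum. The ZGW serum libraries lay below all high glucose libraries and overlapped control through control replicate 3. Dppa2 had a log2 fold change of -0.76 ± 0.43 between ZGW serum and high glucose (interval -1.70 to 0.18; edgeR adjusted p = 0.664) and -0.92 ± 0.43 between ZGW serum and control (interval -1.86 to 0.03; edgeR adjusted p = 0.518). The first value was -0.36 without high glucose replicate 1, and the second was -0.44 without control replicate 1. Between high glucose and control it was -0.16 ± 0.42, and its sign changed without control replicate 1 and without high glucose replicate 3.

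Dppa2 and Dppa4 did not keep one ratio across libraries. The log2 ratio of Dppa2 to Dppa4 in CPM was 2.37, 0.27 and -0.04 in the control libraries, 2.06, 1.06 and 1.03 in those of high glucose and 1.44, 1.07 and 4.30 in those of ZGW serum. The highest ratio was in ZGW serum replicate 3, where Dppa2 was 98.1 CPM and Dppa4 4.97 CPM. Dux, which encodes the homeobox factor downstream of the pair, had levels of 10.9, 33.0 and 14.1 CPM in the control libraries, 58.4, 20.9 and 41.9 CPM under high glucose and 26.3, 24.0 and 42.9 CPM with ZGW serum. Its groups overlapped in all 3 comparisons. Dux was named outside the rule for named genes, after its values were seen.

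Rif1 encodes a large protein that sets replication timing with protein phosphatase 1 and that represses 2-cell genes in embryonic stem cells. It lies on chromosome 2, positions 52072832 to 52122383 on the plus strand. Its levels were 331.4, 290.0 and 479.0 CPM in the control libraries, 482.3, 491.1 and 571.7 CPM under high glucose and 391.1, 367.7 and 183.4 CPM with ZGW serum. The high glucose libraries were the 3 highest, and ZGW serum replicate 3 was the lowest of all 9. The log2 fold change between ZGW serum and high glucose was -0.71 ± 0.32 (interval -1.41 to -0.02; edgeR unadjusted p = 0.0460, adjusted p = 0.574), and -0.41 without ZGW serum replicate 3 (adjusted p = 0.751). Between high glucose and control it was 0.49 ± 0.32 (interval -0.21 to 1.19; edgeR adjusted p = 0.776). Against control, ZGW serum stood at -0.22 ± 0.31, and 0.07 without ZGW serum replicate 3.

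The 6 listed partners of RIF1 in phosphatase and DNA repair pathways were all tested, and 0 passed. Ppp1ca, a catalytic subunit of protein phosphatase 1, had the lowest p of the list in all 3 comparisons. Its levels were 92.2, 134.2 and 126.2 CPM in the control libraries, 102.7, 90.2 and 76.5 CPM under high glucose and 69.4, 41.6 and 35.3 CPM with ZGW serum. The ZGW serum libraries lay below all others, at -0.88 ± 0.32 against high glucose (edgeR adjusted p = 0.512) and -1.27 ± 0.32 against control (edgeR adjusted p = 0.375).

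Levels of different genes were compared per kilobase of annotated exon, as means over the 9 libraries with the SD over libraries. Dppa2 was highest at 51.1 ± 24.6 CPM per kilobase, followed by Rif1 at 38.0 ± 11.4, Dppa4 at 31.1 ± 19.3 and Yap1 at 30.8 ± 6.96. The spreads of these 4 neighbours overlap. Trim28 followed at 7.15 ± 2.48, then Nfya at 4.96 ± 1.73, Trim24 at 4.26 ± 1.92, Nr5a2 at 3.25 ± 1.23 and Smarca4 at 1.96 ± 1.06, again with overlapping spreads between neighbours. The step between Yap1 and Trim28 was larger than the spread of either. With the length of the longest transcript in place of all exons, Yap1 came first at 54.0 CPM per kilobase, and the same 4 genes led. The order also differed between groups. With ZGW serum Yap1 came first at 36.1 ± 6.22, Dppa2 stood at 33.5 ± 10.02 and Dppa4 at 13.1 ± 9.17, and Nr5a2 was lowest at 2.63 ± 0.25. In the control libraries Dppa2 at 63.2 ± 32.0 and Dppa4 at 49.9 ± 19.7 led, and Smarca4 was lowest at 1.45 ± 0.61.

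The genes with patterns most like those of the 3 regulators with the widest range of log2 CPM over libraries (Dppa4 4.43, Trim24 2.47 and Smarca4 2.33) were found by the root mean square difference of centred log2 CPM over the 9 libraries, among 7529 genes. For Dppa4 they were Cyp7b1, Ggnbp2 and Rnf125, at differences of 0.40 to 0.44, beside a median of 1.33 over the genes compared. Those for Trim24 were Ibtk, Rcan3 and Maml1, at 0.17 to 0.21, beside a median of 0.89. For Smarca4 the nearest were Pcif1, Gm3143 and Mapkbp1, at 0.22 to 0.27, beside a median of 0.94. The points share libraries, depth and scaling, and the likeness is a description.

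The short-lived 2-cell transcripts were followed through 21 tested genes, of which 0 passed the threshold in any comparison. This list too was chosen with earlier results of these data known. Between high glucose and control 20 of 21 had values above 0, with a median log2 fold change of 0.37, and the libraries of 3 did not overlap, all higher (6.84% of all genes). Between ZGW serum and high glucose 18 of 21 had values below 0, with a median of -1.38, and the libraries of 12 did not overlap, all lower (8.26% of all genes). In ZGW serum against control 15 of 21 were below 0, with a median of -0.91, and the libraries of 9 did not overlap, 2 higher and 7 lower (9.02% and 7.3% of all genes). The 21 summed to 10914 to 20758 CPM in the control libraries, 16384 to 25106 CPM under high glucose and 5593 to 12188 CPM with ZGW serum. The lowest sum was in ZGW serum replicate 3, and the control sums overlapped those of both other groups. Many of the 21 are copies within the Zscan4 and Usp17l families that share sequence and may share reads. Usp17lc, a deubiquitinase gene, had levels of 26.8, 33.3 and 28.3 CPM in the control libraries, 93.1, 37.0 and 67.3 CPM under high glucose and 15.8, 16.3 and 15.7 CPM with ZGW serum. Its 3 groups did not overlap, at 1.16 ± 0.38 between high glucose and control (edgeR adjusted p = 0.627). Usp17lc was named for the lowest p of the list in that comparison, so the separation is no further evidence. Usp17le, another copy, had the lowest p in both comparisons with ZGW serum, at -3.08 ± 0.58 against high glucose (edgeR adjusted p = 0.370) and -3.04 ± 0.57 against control (edgeR adjusted p = 0.338).

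**Figure D4:**
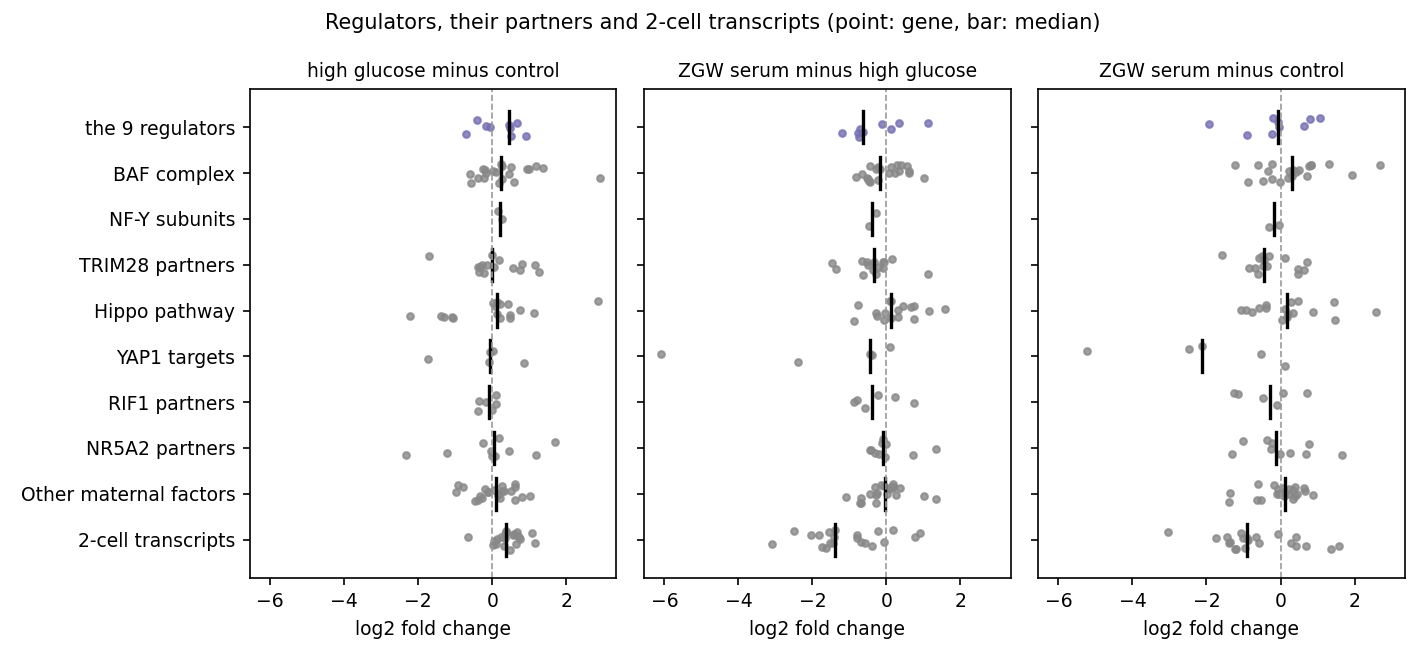
edgeR log2 fold change (horizontal axes) of each tested gene in the list of the 9 regulators and in lists of their partners, targets and 2-cell transcripts, in 3 panels for the 3 comparisons; each point is a gene and each black bar a median. The bar of the 2-cell transcripts sits at 0.37 between high glucose and control and at -1.38 between ZGW serum and high glucose.

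A further 22 maternal factors needed at activation or early cleavage were all tested, and 0 passed the threshold. Their median log2 fold changes were 0.10, -0.03 and 0.11 for high glucose against control, ZGW serum against high glucose and ZGW serum against control. Zfp36l2, an RNA-binding protein that promotes RNA decay, had levels of 82.4, 66.7 and 59.6 CPM in the control libraries, 19.0, 40.9 and 46.9 CPM under high glucose and 34.8, 17.5 and 27.0 CPM with ZGW serum. Every control library lay above every other library, at -0.97 ± 0.41 for high glucose (edgeR adjusted p = 0.672) and -1.40 ± 0.42 for ZGW serum (edgeR adjusted p = 0.402). Dppa3, which encodes the maternal protein Stella that guards DNA methylation, had the lowest p between ZGW serum and high glucose, at 1.02 ± 0.39 (edgeR adjusted p = 0.530), and is also one of the oocyte markers.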

How the data were processed

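RNA-seq covered 9 libraries in 3 groups of 3, and the labels give 3 embryos to a library. The table the authors deposited holds raw counts per gene symbol, with no normalisation. Per the submitters' processing notes, Trim Galore and mm10 were used. Aligner, counter, annotation and strand setting: not given in the sources used here. Groups and replicate numbers came from the labels. The members, the gene lists and the tests were chosen with earlier results of these data known.

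Counts were tested with edgeR 4.0.16 (R 4.3.3) by the robust quasi-likelihood test, with TMM factors, a minimum count of 10 in edgeR's filter and a single fit of the 9 libraries. P-values were adjusted by Benjamini-Hochberg over 16964 genes, with a threshold of 0.05, and intervals are at 95%. The script was also run on simulated counts with known fold changes, and the outcome of that run is not given here. As alternatives, the fit was repeated with DESeq2 1.42.0, RLE size factors, limma-voom (limma 3.58.1), no filter, a stricter filter of 10 counts in 6 libraries, the replicate number as a block, and leaving out each library. Overlap counts without control replicate 1 or ZGW serum replicate 3 were added after the data were seen. Libraries within a group all differed by more than sampling noise (chi-square per degree of freedom 50.9 to 135.6).

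All 9 members are named. From each other list, genes past the threshold or otherwise the gene of lowest unadjusted p in each comparison are named. Genes named for a low p tend to have separate groups, so their separation is no further evidence. Positions are from GENCODE annotation of GRCm38, and shared sequence is the percent of 50-base stretches found in another gene. Log2 CPM used a prior count of 2.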

Additional observations from a re-analysis of the deposited data

How the results depend on the processing

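By edgeR 0 genes were called in each comparison. DESeq2 called 129 genes between high glucose and control, 241 between ZGW serum and high glucose and 348 between ZGW serum and control, among them 1 regulator, Dppa4. Limma-voom, no filter and the stricter filter each called 1 gene between ZGW serum and control. With the replicate number as a block 0 genes were called in each comparison, and 1198, 1459 and 1626 passed at an unadjusted p under 0.05, against 1253, 1473 and 1673 without it. Same-numbered libraries deviated together with correlations of -0.01 to 0.10, so the numbers were not taken to pair the samples. Of 459 log2 fold changes of regulators under alternatives, 437 kept their sign and their side of the threshold, 21 changed sign and 1 passed the threshold. The 459 include fits without a library of the group not compared, which could hardly move the value. Since edgeR called 0 genes, the side of the threshold was also nearly fixed, so the 437 is no measure of stability. The sign changes fell in 8 of the 27 pairs of gene and comparison, and the cause was not tested. Between high glucose and control, Smarca4 was 0.042 by limma-voom and ran from -0.35 to 0.30 as single libraries were left out, and Dppa2 from -0.55 to 0.32, with 0.31 without control replicate 1 and ZGW serum replicate 3. Between ZGW serum and high glucose, leaving out single libraries gave -0.48 to 0.22 for Trim24 and -0.044 to 0.58 for Trim28. Between ZGW serum and control it gave -0.50 to 0.19 for Trim28, -0.30 to 0.31 for Nfya, -0.52 to 0.42 for Nr5a2 and -0.41 to 0.074 for Rif1. There Nfya was 0.10 by limma-voom and 0.0014 with the replicate block, Nr5a2 was 0.011 by limma-voom, and Rif1 was 0.0060 without control replicate 1 and ZGW serum replicate 3. Between high glucose and control, regulators whose groups did not overlap numbered 2 over all libraries (13.7% of all genes) and 4 without control replicate 1 (23.5%). Such counts can only stay or grow when a library is left out, and say nothing about stability. ZGW serum replicate 3 is in neither of these groups, so leaving it out could not change them. RLE size factors moved the median of all genes by less than 0.05. With 3 libraries per group, a median standard error over genes of 0.78 between high glucose and control limits what can be called there.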
